A study of Mus musculus with 11 samples.

Results

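The meningeal fibroblast identity genes are 10 genes that mark the fibroblasts of the membranes around the brain: Tbx15, Tbx18, Foxc1, Foxd1, Zic1, Twist1, Osr1, Slc6a13, Aldh1a2 and Crabp2. They were taken by symbol from the 53465 genes counted, and all 10 were found. Tbx15 was chosen by its counts in withdrawn and naïve mice, so its difference between the groups is given as a description and carries no test. The other 9 were chosen as known markers of the same cells, but with earlier results of these data known. Their differences between the groups are therefore not independent support. Counts were recorded for RNA of mPFC CRF1+ neurons, cells of the medial prefrontal cortex that carry GFP in the CRF1:GFP reporter line, sorted by fluorescence from single adult male mice at least 10 weeks old. In this line a bacterial artificial chromosome with the Crhr1 promoter drives GFP. The 6 naïve mice breathed air and received the alcohol dehydrogenase inhibitor pyrazole. The 5 withdrawn mice were exposed to ethanol vapor in an intermittent schedule for 5 to 6 weeks, were injected with ethanol and pyrazole, and were sampled after 5 to 8 days of abstinence. Each library came from 1 mouse, so n counts mice.

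Some labels and libraries need naming before the results. For withdrawn mice 3, 4 and 5 the title and treatment read ethanol but the source name has the word control, and the overall design swaps the sizes of the groups. Values without these mice are therefore given for the edgeR fold changes and the median correlation. DESeq2 and the permutation tests were not run without them. The libraries held between 7351567 and 22244869 counts on genes, and 3 counts, the floor used here, correspond to between 0.140 and 0.369 CPM (counts relative to the normalized library size). Naïve mouse 5 had the fewest genes detected, 15585 against 22551 to 31830 in the other 10 mice. Withdrawn mouse 2 stood apart in the genes reported here and is named beside each result. The share of tallied reads outside genes was 5.77% to 31.5% in naïve mice and 13.3% to 48.1% in withdrawn mice. The sort was for neurons, and 6 glutamatergic neuron markers summed to 2876 to 4374 CPM in naïve mice and 1856 to 4012 CPM in withdrawn mice. In bulk libraries a larger number of cells of a type and more RNA per cell cannot be told apart.

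The meninges consist of an outer dura and the inner arachnoid and pia, and fibroblasts are their main structural cell. These fibroblasts lay down the collagen-rich matrix around the brain, and in the embryo they supply the cortex below with secreted signals, among them retinoic acid. Of the 10 genes, 7 encode transcription factors. Tbx15 and Tbx18 are T-box factors of mesenchymal cells, and Tbx18 is also found in the mural cells of vessels. Foxc1 is a forkhead factor that meningeal development requires, and Foxd1 is a forkhead factor of stromal precursors. Zic1 is a zinc finger factor, Twist1 a basic helix-loop-helix factor of mesenchyme and Osr1 a zinc finger factor of embryonic mesenchyme. The other 3 act in transport and in retinoic acid metabolism. Slc6a13 encodes a GABA and taurine transporter of leptomeningeal cells, Aldh1a2 the enzyme that makes retinoic acid from retinal, and Crabp2 a protein that binds retinoic acid inside cells.

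On GRCm38, Tbx15 (ENSMUSG00000027868) lies at chr3:99240381-99354259 and Crabp2 at chr3:87948666-87953376. Tbx18 lies at chr9:87702800-87731260, Zic1 at chr9:91358058-91365810 and Aldh1a2 at chr9:71215789-71296243. Foxc1 at chr13:31806633-31812476 and Foxd1 at chr13:98354242-98359305 each consist of 1 exon. Twist1 lies at chr12:33957671-33959829, Osr1 at chr12:9570116-9581500 and Slc6a13 at chr6:121300227-121337733. Tbx18 and Zic1 are on the minus strand and the others on the plus strand. Tbx18 shares 970 of its 4718 exonic bases with D030062O11Rik on the opposite strand, and Zic1 shares 60 with Zic4. Whether counting used strand is not given in the sources used here, so reads from these stretches are uncertain.

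RefSeq promoter windows on GRCm38.p6, from 250 bases before to 50 after a start site, were found for 7 of the 10 genes. The windows of 5 transcription factors are shown, since levels of the transcription factors varied together between mice. Capitals mark each E-box, the letters CANNTG, which basic helix-loop-helix factors such as Twist1 bind.
Tbx18, chr9:87731211-87731510, minus strand: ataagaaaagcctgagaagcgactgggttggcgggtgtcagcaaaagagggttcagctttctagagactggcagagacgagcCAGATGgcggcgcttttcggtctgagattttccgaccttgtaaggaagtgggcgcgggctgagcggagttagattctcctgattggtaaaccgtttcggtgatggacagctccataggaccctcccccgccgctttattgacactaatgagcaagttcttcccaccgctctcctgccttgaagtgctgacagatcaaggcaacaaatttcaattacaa
Foxc1, chr13:31806396-31806695, plus strand: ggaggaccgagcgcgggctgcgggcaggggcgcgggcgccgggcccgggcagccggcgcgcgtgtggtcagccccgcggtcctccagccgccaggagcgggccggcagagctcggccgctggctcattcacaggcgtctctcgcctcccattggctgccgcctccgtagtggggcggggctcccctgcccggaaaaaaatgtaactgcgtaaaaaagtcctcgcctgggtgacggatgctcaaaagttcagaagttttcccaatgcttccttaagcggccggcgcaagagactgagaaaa
Foxd1, chr13:98353995-98354294, plus strand: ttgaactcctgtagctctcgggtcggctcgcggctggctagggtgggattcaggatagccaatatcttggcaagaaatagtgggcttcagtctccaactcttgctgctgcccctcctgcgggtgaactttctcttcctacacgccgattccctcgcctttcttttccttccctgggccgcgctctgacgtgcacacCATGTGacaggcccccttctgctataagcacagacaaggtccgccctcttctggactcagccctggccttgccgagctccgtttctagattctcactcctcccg
Zic1, chr9:91365719-91366018, minus strand: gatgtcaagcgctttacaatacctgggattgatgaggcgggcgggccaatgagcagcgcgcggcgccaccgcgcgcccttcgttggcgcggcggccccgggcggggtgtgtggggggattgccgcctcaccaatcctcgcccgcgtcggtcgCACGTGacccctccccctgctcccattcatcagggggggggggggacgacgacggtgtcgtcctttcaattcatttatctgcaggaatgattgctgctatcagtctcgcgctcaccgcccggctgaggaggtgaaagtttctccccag
Twist1, chr12:33957421-33957720, plus strand: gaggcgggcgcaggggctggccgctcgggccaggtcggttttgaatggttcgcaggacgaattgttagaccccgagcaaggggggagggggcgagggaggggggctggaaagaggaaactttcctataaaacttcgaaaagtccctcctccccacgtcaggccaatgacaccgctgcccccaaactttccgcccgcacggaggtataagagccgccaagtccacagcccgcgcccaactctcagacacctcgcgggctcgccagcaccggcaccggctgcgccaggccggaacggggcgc

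An E-box was present once each in the windows of Tbx18, Foxd1 and Zic1 and in neither that of Foxc1 nor that of Twist1, against 72.3% of all 32851 promoter windows. The T-box half-site GGTGTGA and the forkhead letters GTAAACA, searched on both strands, were in none of the windows of the 7 genes, against 3.98% and 3.65% of all windows, so no match overlapped another. The windows of Foxc1, Zic1 and Twist1 held 32, 31 and 27 CpG dinucleotides, and those of Foxd1 and Tbx18 held 15 each, against a median of 7 over all windows (quartiles 3 and 20). These matches describe the letters of the windows only.

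Tbx15 was close to absent in naïve mice and present in every withdrawn mouse. Naïve mice 1, 3 and 5 had 0 counts, which allows up to 0.322, 0.281 and 0.203 CPM, and naïve mice 2, 4 and 6 had 11, 13 and 1. Withdrawn mice 1 to 5 had 516, 53, 427, 337 and 163 counts, or 37.2, 5.93, 19.9, 41.4 and 11.5 CPM. The lowest withdrawn mouse, mouse 2, was above the highest naïve mouse, at 0.757 CPM. The log2 fold change of withdrawn over naïve mice was 6.46 ± 1.06 (SE), and it stayed between 6.16 and 7.18 over 18 alternative fits.

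Foxd1 was the other gene in which no withdrawn mouse overlapped a naïve mouse. It had 0 counts in naïve mice 1, 3 and 5, and 43, 41 and 13 in naïve mice 2, 4 and 6, at most 2.39 CPM. Withdrawn mice 1 to 5 had 851, 82, 495, 338 and 106 counts, or 61.3, 9.18, 23.1, 41.6 and 7.50 CPM. Complete separation of this kind was found in 118 of 17093 genes tested, or 0.69%. The log2 fold change was 4.89 ± 1.13 (SE), with an adjusted p of 0.157 by edgeR's quasi-likelihood test and 0.00109 by DESeq2.

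Foxc1 was already present in 5 of 6 naïve mice, at 0 to 3.97 CPM with a median of 2.78. Withdrawn mice 1 to 5 had 73.8, 3.02, 17.6, 42.2 and 4.95 CPM. The groups overlapped through withdrawn mouse 2, which lay within the naïve range, while the other 4 withdrawn mice were above it. The log2 fold change was 3.46 ± 0.94 (SE), with an adjusted p of 0.256 by edgeR and 0.00752 by DESeq2.

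Zic1 and Osr1 showed the same form, with withdrawn mouse 2 at 0. Zic1 was at 0 to 3.96 CPM in naïve mice (median 1.77), and at 50.5, 0, 15.1, 32.0 and 9.34 CPM in withdrawn mice 1 to 5. Osr1 was at 0 to 6.48 CPM in naïve mice (median 1.65), and at 80.2, 0, 32.0, 63.4 and 15.0 CPM in withdrawn mice 1 to 5. For both genes the 4 withdrawn mice other than mouse 2 were above all 6 naïve mice. The log2 fold change of Zic1 was 3.48 ± 1.16 (SE; adjusted p = 0.423 by edgeR, 0.0687 by DESeq2), and that of Osr1 was 3.95 ± 1.31 (SE; adjusted p = 0.420 by edgeR, 0.217 by DESeq2).

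Tbx18 and Twist1 were lower and overlapped more. Tbx18 was at 0 in naïve mice 1, 5 and 6 and reached 2.85 CPM in naïve mouse 4. It was at 14.0, 0, 8.50, 17.2 and 2.12 CPM in withdrawn mice 1 to 5, so that mouse 5 too lay within the naïve range. Twist1 was at 0 to 2.04 CPM in naïve mice (median 0.785), and at 10.8, 0, 4.67, 10.7 and 0.424 CPM in withdrawn mice 1 to 5. Their log2 fold changes were 3.36 ± 1.46 and 2.5 ± 1.36 (SE), with adjusted p of 0.648 and 0.769 by edgeR's quasi-likelihood test.

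The 3 genes that are not transcription factors did not follow this order of mice. Slc6a13, the GABA and taurine transporter, had 14, 62, 0, 53 and 0 counts in withdrawn mice 1 to 5 and up to 80 in naïve mice, and the groups overlapped throughout. It was highest in withdrawn mouse 2, at 6.94 CPM, the mouse in which most of the transcription factors were lowest. Aldh1a2 was mainly seen in 2 libraries, with 34 counts in naïve mouse 2 and 52 in withdrawn mouse 4, and it did not pass the filter on low counts. Crabp2 was at 0 to 3.93 CPM in naïve mice, and at 1.58, 0, 7.99, 17.0 and 7.78 CPM in withdrawn mice 1 to 5. The log2 fold change was 1.25 ± 1.59 (SE) for Slc6a13 and 2.63 ± 1.40 for Crabp2, with adjusted p of 0.928 and 0.765 by edgeR. The value of Slc6a13 was 2.35 without naïve mouse 2 and 0.59 without withdrawn mouse 2. That of Crabp2 was 3.68 without naïve mouse 5 and 1.97 without withdrawn mouse 4, and it turned to -0.47 without withdrawn mice 3, 4 and 5.

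**Figure D1:**
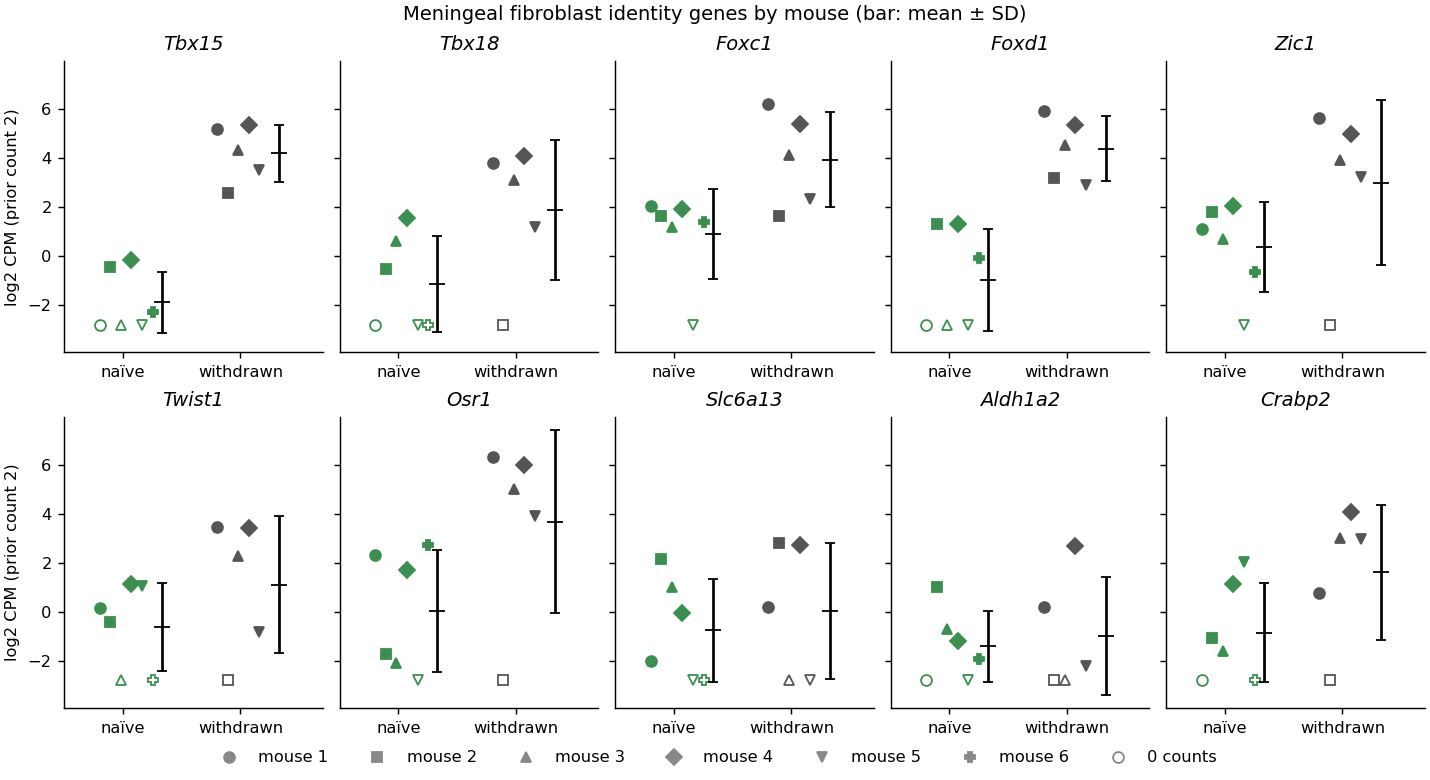
Level of each gene in each mouse, as log2 CPM with a prior count of 2, in 6 naïve (green) and 5 withdrawn mice (grey); open symbols had 0 counts, and bars show the mean ± SD. Tbx15 and Foxd1 do not overlap between the groups, and withdrawn mouse 2 (square) had 0 counts of Tbx18, Zic1, Twist1, Osr1, Aldh1a2 and Crabp2.

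Of the 10 genes, 9 passed the filter on low counts, and each of these had a higher estimate in withdrawn mice. A gene that is high in 1 group can pass the filter through that group, and the lists were chosen with earlier results known. This count, the medians and the counts of genes past a threshold, here and for the other lists, are therefore descriptions. A positive estimate was found for 51.8% of all genes tested, and the median log2 fold change was 3.46 for the 9 genes and 0.02 for all tested genes. The 9 include Tbx15, which was chosen by its counts in these groups. The other 8 ran from 1.25 (Slc6a13) to 4.89 (Foxd1). A log2 fold change above 2 was found for 7 of the 8 tested genes other than Tbx15, Slc6a13 being the exception, and for 4.37% of all genes. None of these 8 passed an adjusted p of 0.05 by edgeR, by which 1 gene in all, Ptgdr, was called (0.00585%). At an unadjusted p below 0.05, 5 of the 8 were higher (Tbx18, Foxc1, Foxd1, Zic1 and Osr1), against 5% of all genes. DESeq2 called Foxc1 and Foxd1 higher, against 1.57% of its genes. When withdrawn mouse 2 was left out, an alternative chosen after seeing the data, DESeq2 called Osr1 and Zic1 as well, and the adjusted p by edgeR was 0.0544 for Foxd1, 0.0667 for Foxc1, 0.0678 for Zic1 and 0.0954 for Osr1. Without withdrawn mice 3, 4 and 5 only withdrawn mice 1 and 2 remained. Of these, mouse 2 was at 0 for Zic1 and Osr1 and within the naïve range for Foxc1. By edgeR the log2 fold changes were then 5.18 ± 1.47 (SE) for Foxd1 and 3.88 ± 1.15 for Foxc1 (adjusted p = 0.647 for both). They were 3.70 ± 1.54 for Zic1 and 3.98 ± 1.72 for Osr1 (adjusted p = 0.789 for both). Of the single mice left out, withdrawn mouse 1 took the estimate to 2.69 for Foxc1 and 2.86 for Zic1, and naïve mouse 4 took that of Tbx18 to 4.41.

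**Figure D2:**
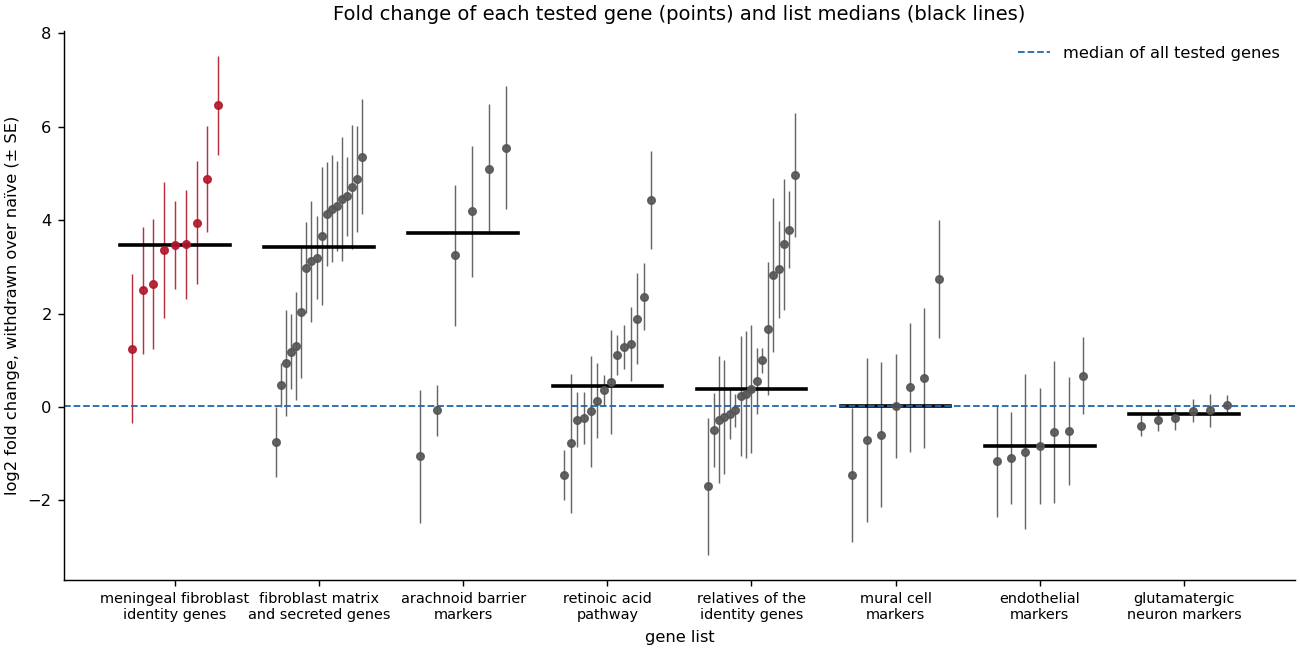
Log2 fold change of withdrawn over naïve mice for each tested gene, with its SE, in 8 lists; black lines mark list medians and the dashed line the median of all tested genes, 0.02. The identity genes, with a median of 3.46 (Tbx15 included), lie beside the fibroblast matrix and secreted genes, with a median of 3.43. The endothelial markers have a median of -0.84.

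Levels of different genes were compared per length, as CPM divided by the exonic length in kilobases (RPKM). In naïve mice Osr1 had the highest mean, 1.20 ± 1.36 RPKM (SD, n = 6), followed by Crabp2 at 0.825 ± 1.21 and Twist1 at 0.571 ± 0.559, and Tbx15 the lowest, 0.063 ± 0.093. In withdrawn mice Osr1 again had the highest mean, 18.5 ± 16.1 RPKM (SD, n = 5), and Tbx15 was next at 6.19 ± 4.16. Foxd1, Crabp2 and Foxc1 followed at 5.63 ± 4.51, 5.19 ± 5.06 and 4.84 ± 5.10, and Zic1, Twist1 and Tbx18 at 3.76 ± 3.51, 3.27 ± 3.25 and 1.78 ± 1.57. Slc6a13 and Aldh1a2 were lowest, at 0.996 ± 1.21 and 0.660 ± 1.22 RPKM. Every pair of neighbours in either order differed by less than the larger SD of the pair, Osr1 and Tbx15 in withdrawn mice included.

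Summed over the 9 genes other than Tbx15, naïve mice had 5.89 to 21.3 CPM (median 11.2). Withdrawn mice 1 to 5 had 294, 19.1, 109, 237 and 47.2 CPM. Withdrawn mouse 2 lay within the naïve range and the other 4 above it. The number of genes with any count was 5, 10, 7, 10, 2 and 6 in naïve mice 1 to 6, and 10, 4, 8, 10 and 9 in withdrawn mice 1 to 5. The mice with all 10 also had the most genes detected of any kind, 28198 to 31830, and naïve mouse 5 the fewest, 15585. Withdrawn mouse 2, with 4, had 23659 genes detected, more than the 22551 of withdrawn mouse 3, with 8. The part of detection in these counts was not tested. In withdrawn mouse 2 the 4 genes with counts were Tbx15, Foxc1, Foxd1 and Slc6a13. The 7 transcription factors gave 86.6% to 98.9% of the sum over all 10 genes in withdrawn mice 1, 3, 4 and 5, and 72.3% in mouse 2.

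The transcription factors ranked the withdrawn mice in nearly the same order. Foxc1, Zic1, Twist1 and Osr1 each ran, from highest to lowest, through mice 1, 4, 3, 5 and 2. For Tbx15 and Tbx18 mice 1 and 4 changed places, and for Foxd1 mice 2 and 5 did. The order was another for Crabp2, in which mouse 1 came next to last, and for Slc6a13, in which mouse 2 came first.

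The ratio of each gene's CPM to that of Tbx15 was compared between withdrawn mice. The ratios are not scaled by length, so they compare mice and not genes. For Osr1 the ratio was 2.16, 0, 1.60, 1.53 and 1.30 in withdrawn mice 1 to 5. For Zic1 it was 1.36, 0, 0.759, 0.772 and 0.810, close to one value in mice 3, 4 and 5. For Foxd1 it was 1.65, 1.55, 1.16, 1.00 and 0.650, so that mouse 2, with 82 counts, lay within the range of the other mice. The ratio of Foxc1 ranged from 0.429 in mouse 5 to 1.98 in mouse 1, with 0.509 in mouse 2. That of Crabp2 ranged from 0.043 in mouse 1 to 0.675 in mouse 5, apart from 0 in mouse 2.

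**Figure D3:**
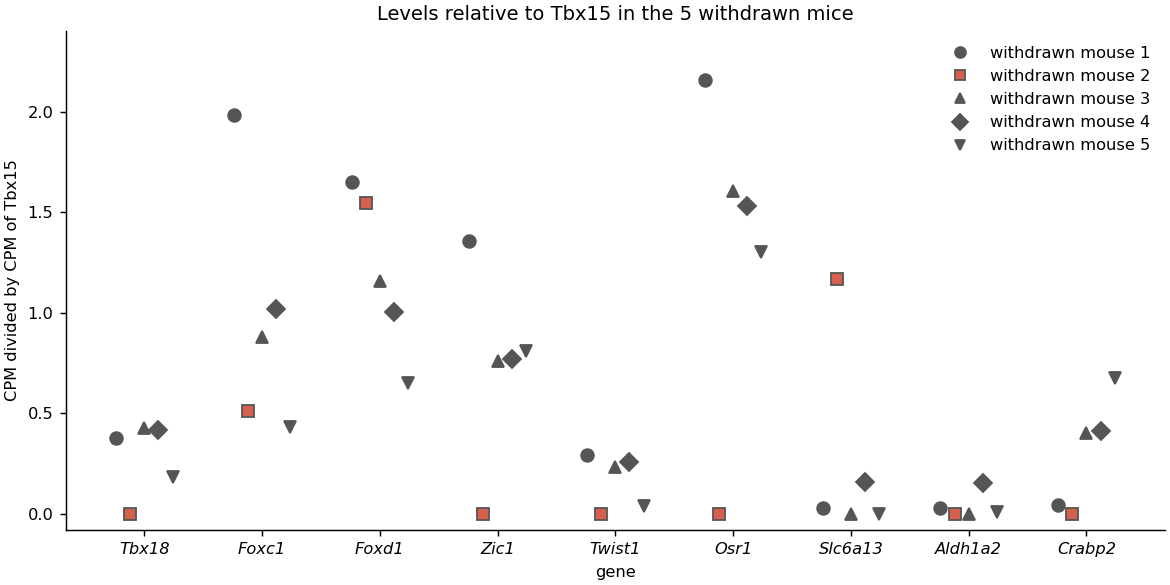
CPM of each gene divided by the CPM of Tbx15 in the same library, for the 5 withdrawn mice. Mouse 2 (red square) lies within the range of the other mice for Foxc1 and Foxd1, is at 0 for Tbx18, Zic1, Twist1, Osr1, Aldh1a2 and Crabp2, and is highest for Slc6a13.

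To ask whether the genes moved together between mice of the same group, group means were subtracted from log2 CPM and the 9 tested genes were correlated in pairs over the 11 mice. The median r of the 36 pairs was 0.544, with 20 pairs above 0.5. Among all pairs of tested genes the median was 0.030 and 13.4% were above 0.5. Other marker lists also moved together. The median r was 0.880 for endothelial, 0.760 for border macrophage, 0.668 for fibroblast matrix and 0.663 for GABAergic neuron genes. It was 0.533 for mural, 0.445 for glutamatergic neuron, 0.443 for astrocyte and 0.372 for arachnoid barrier markers. Relatives had 0.270, oligodendrocyte markers 0.265, choroid plexus markers 0.159, retinoic acid genes 0.118 and microglia markers 0.058. The 21 pairs of transcription factors had a median r of 0.633 (range 0.404 to 0.910) and 18 above 0.5. The 14 pairs of a factor with Slc6a13 or Crabp2 had a median of 0.279, and Slc6a13 with Crabp2 had r = -0.264. Aldh1a2, which did not pass the filter, was not among these pairs. Its r with the factors was 0.712 for Tbx15, 0.632 for Tbx18, 0.601 for Foxd1, 0.591 for Zic1 and 0.59 for Foxc1. For Twist1 it was 0.394 and for Osr1 0.274, so moving together was not confined to the factors. These are descriptions: pairs share libraries, depth and mice at 0. Without withdrawn mouse 2 the median over the 36 pairs was 0.414, and within the 6 naïve mice alone, where counts were few, it was 0.341.

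**Figure D4:**
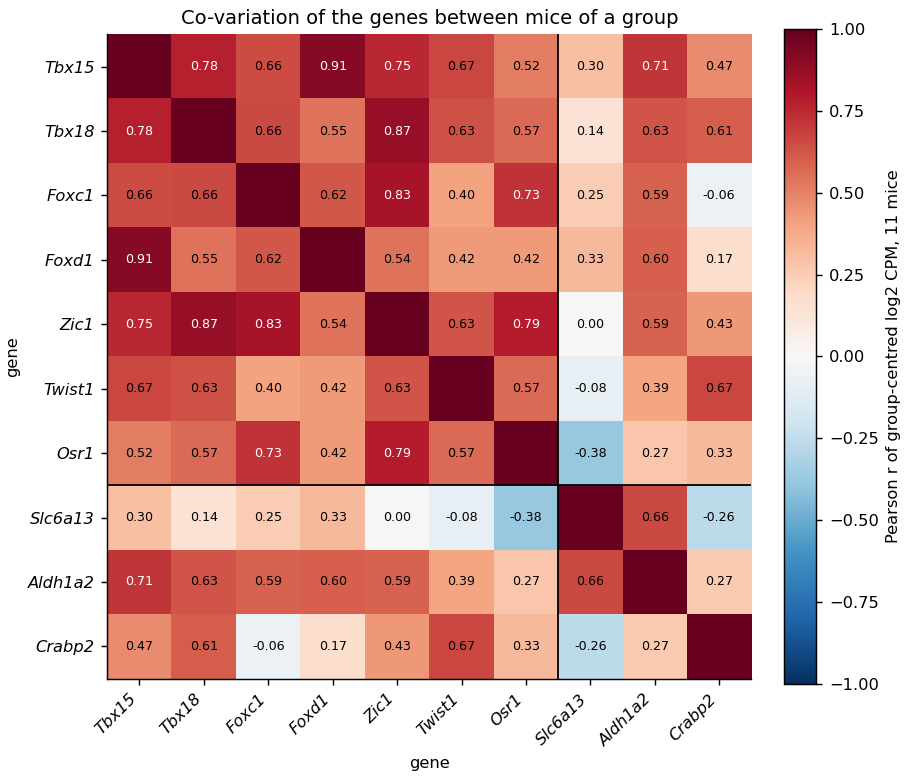
Pearson r between genes, over 11 mice, of log2 CPM after subtraction of each group's mean; lines separate the 7 transcription factors from the other 3 genes. Pairs of transcription factors run from 0.40 to 0.91, while Slc6a13 runs from -0.38 with Osr1 to 0.66 with Aldh1a2.

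Tbx15 was compared in this way with each of the other 9 genes. It was closest to Foxd1 (Pearson r = 0.910, exact permutation p = 0.000486; Spearman rho = 0.889, p = 0.00118). Zic1 followed in p (r = 0.753, exact permutation p = 0.00236; rho = 0.807, p = 0.00319), and Tbx18 had r = 0.779 (exact permutation p = 0.00660; rho = 0.759, p = 0.0138). Without naïve mice 2 and 4, the mice farthest from the median of Tbx15, r was 0.794 for Foxd1, 0.805 for Zic1 and 0.803 for Tbx18. Without withdrawn mouse 2 it was 0.935, 0.698 and 0.701. Osr1, Slc6a13 and Crabp2 had r of 0.516, 0.305 and 0.470, with exact permutation p of 0.117, 0.371 and 0.169. Foxc1, Twist1 and Aldh1a2 lay between, with r of 0.656, 0.668 and 0.712 and exact permutation p of 0.0353, 0.0349 and 0.0193. Their Spearman rho was 0.61, 0.60 and 0.65, with exact permutation p of 0.0547, 0.0542 and 0.0333. Without naïve mice 2 and 4 the r of Osr1, Slc6a13 and Crabp2 was 0.803, -0.014 and 0.476. Without withdrawn mouse 2 it was 0.238, 0.658 and 0.202. Permutations were within groups, over 86400 arrangements, and their p was not adjusted for the 9 genes compared. In the edgeR fit of every gene on group and Tbx15 level, none of the other genes was called (adjusted p = 0.997 for Foxd1, slope 1.34), and 0% of all genes were. At an unadjusted p below 0.05 Foxd1 and Zic1 had positive slopes, against 2.49% of all genes, and by DESeq2 Foxd1 was called (adjusted p = 0.00321), against 0.296%.

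Outside the list, the tested genes whose within-group pattern was most like the mean of the identity genes over the 11 mice were Mrap (r = 0.946), Frk (0.944), Thap6 (0.944), Fgl2 (0.944) and Gpx8 (0.934). Mrap encodes a melanocortin receptor accessory protein, Frk a tyrosine kinase and Gpx8 a peroxidase of the endoplasmic reticulum. All 5 were at 0 in naïve mouse 5 and withdrawn mouse 2. Gpx8 was at 48.6, 0, 17.9, 44.9 and 8.42 CPM in withdrawn mice 1 to 5 and at most at 2.97 CPM in naïve mice. Mrap was at 25.8, 0, 15.8, 51.1 and 9.20 CPM in withdrawn mice 1 to 5 and at most at 4.95 CPM in naïve mice.

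The fibroblast matrix and secreted genes, a list of 20 products of fibroblasts, gave a like picture. Of 18 that passed the filter, 17 had higher estimates in withdrawn mice, with a median log2 fold change of 3.43. None was called by edgeR, 12 were higher at an unadjusted p below 0.05 (5% of all genes), and DESeq2 called 5 higher (1.57% of its genes): Col1a1, Dcn, Islr, Mgp and Ogn. Without withdrawn mouse 2 edgeR called 7 genes of the list, when it called 193 genes in all. Mgp, which encodes an inhibitor of calcification in matrix, was at 2.17 to 65.8 CPM in naïve mice (median 27.8) and 43.4 to 1255 CPM in withdrawn mice (median 630). Its log2 fold change was 4.51 ± 0.84 (SE; adjusted p = 0.0883 by edgeR, 2.5e-06 by DESeq2). Col1a1, a chain of type I collagen, was at 0 to 16.5 CPM in naïve and 3.02 to 378 CPM in withdrawn mice. Ogn, a small leucine-rich proteoglycan, was at 0 to 8.06 CPM in naïve mice and 0 to 217 CPM in withdrawn mice. Dcn, the proteoglycan decorin, was at 0 to 5.22 CPM in naïve and 5.26 to 50.8 CPM in withdrawn mice. It was the 1 gene of the list without overlap, against 0.69% of all genes tested. Its ranges nearly met, at a distance smaller than the floor of 3 counts. Islr, a secreted protein of mesenchymal cells, was at 2.03 to 12.7 CPM in naïve mice, and at 0 in the lowest and 247 CPM in the highest withdrawn mouse.

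By mouse, the summed level of the 20 matrix genes was 267 to 464 CPM in naïve mice and 4210, 106, 2414, 3794 and 1127 CPM in withdrawn mice 1 to 5. The order of the withdrawn mice was that of Foxc1, Zic1, Twist1 and Osr1. Withdrawn mouse 2 was below all 6 naïve mice in this sum, though not in each gene. For Dcn the lowest withdrawn mouse, at 5.26 CPM, was barely above the highest naïve mouse, at 5.22 CPM. Of the 20 genes, 7 were at 0 in withdrawn mouse 2, against 14 in naïve mouse 5. Igfbp6, Cxcl12 and Col5a1 had naïve means of 137, 49.0 and 45.4 CPM, of a mean sum of 350 CPM. Their log2 fold changes were 0.47, 1.19 and -0.75, and their lowest withdrawn values 24.5, 7.16 and 3.36 CPM. The place of mouse 2 in the sum therefore depends largely on these genes.

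Markers of other cells that lie in or near the meninges were read beside these. The 6 arachnoid barrier markers summed to 1.96 to 49.5 CPM in naïve mice and 401, 6.38, 216, 420 and 126 CPM in withdrawn mice 1 to 5. Most of the withdrawn sum was 1 gene, Slc47a1, with a mean of 181 CPM of a mean sum of 234 CPM. Of the 6 markers, 4 had higher estimates, with a median log2 fold change of 3.72, and DESeq2 called Cldn11 and Slc47a1 higher (1.57% of its genes), a tight junction protein and an organic cation exporter. Cldn11 was at 0 in withdrawn mouse 2. The 2 markers with lower estimates were Slc22a8 (log2 fold change -1.06) and Dpp4 (-0.07). Slc22a8 had the highest naïve mean of the 6, 18.0 CPM, against 8.70 CPM in withdrawn mice. The 7 endothelial markers went the other way, with 6 of 7 lower and a median of -0.84, and none was called by edgeR or DESeq2 or had an unadjusted p below 0.05 by edgeR. Their sum was 24.2 CPM in withdrawn mouse 1, where the identity genes were highest, and 628 CPM in withdrawn mouse 4. The mural cell markers summed to 0.203 to 173 CPM in naïve and 14.1 to 249 CPM in withdrawn mice, and the median of their log2 fold changes was 0.02. Border macrophage markers summed to at most 6.28 CPM in naïve and 10.7 CPM in withdrawn mice, and choroid plexus and ependyma markers to at most 6.84 and 27.7 CPM. Microglia markers summed to 7.84 to 24.2 and 8.28 to 44.3 CPM, astrocyte markers to 73.1 to 265 and 60.9 to 442 CPM, oligodendrocyte markers to 139 to 255 and 100.4 to 232 CPM, and GABAergic neuron markers to 73.3 to 923 and 28.5 to 669 CPM, in naïve and withdrawn mice. Of the 5 astrocyte markers tested, 4 had lower estimates (median log2 fold change -0.63), and Gja1, a gap junction protein and the 1 higher, had means of 15.3 CPM in naïve and 187 CPM in withdrawn mice. The part of these cells in the levels of the identity genes was not tested.

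**Figure D5:**
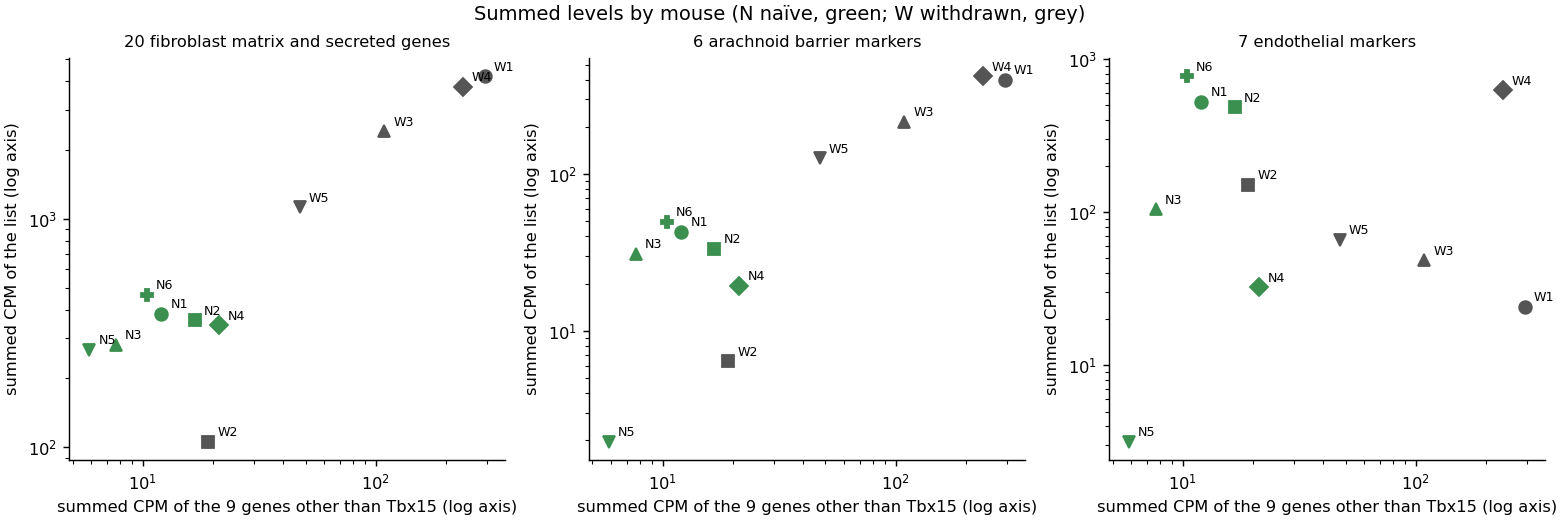
Summed CPM of 3 marker lists against the summed CPM of the 9 identity genes other than Tbx15 in each mouse, both on log axes; N marks naïve and W withdrawn mice. Withdrawn mice 1, 3, 4 and 5 lie above the naïve mice in the fibroblast matrix and arachnoid barrier lists, withdrawn mouse 2 lies lowest of all in the matrix list at 106 CPM, and the endothelial list shows no such separation.

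The wider retinoic acid pathway, to which Aldh1a2 and Crabp2 belong, was mixed. Of 14 of 16 genes tested, 9 had higher and 5 lower estimates, with a median log2 fold change of 0.44. None was called by edgeR, while 4 were higher and 1 lower at an unadjusted p below 0.05, against 5% and 2.22% of all genes. DESeq2 called 2 higher, against 1.57% of its genes, and without withdrawn mouse 2 edgeR called 1. Dhrs3, which reduces retinal to retinol, was at 2.26 to 14.0 CPM in naïve mice and 3.81 to 73.6 CPM in withdrawn mice, a log2 fold change of 2.36 ± 0.72 (SE; adjusted p = 0.327 by edgeR, 0.0483 by DESeq2). Rbp4, the retinol carrier of plasma and the 1 gene lower at an unadjusted p below 0.05 by edgeR, was named after its values were seen. It was at 9.14 to 52.9 CPM in naïve and 2.99 to 18.8 CPM in withdrawn mice (log2 fold change -1.45 ± 0.54, SE, adjusted p = 0.501 by edgeR).

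Relatives of the identity genes, 24 genes of the same families, were mixed as well. Of 17 tested, 11 had higher and 6 lower estimates, with a median log2 fold change of 0.39, and none was called by edgeR, while 5 were higher at an unadjusted p below 0.05 (5% of all genes). DESeq2 called Zic4, Zic2 and Slc6a6 higher (1.57% of its genes), and without withdrawn mouse 2 edgeR called Zic4 and Foxc2. Zic4, which lies beside Zic1 and shares 60 exonic bases with it, was at 0.107 to 8.26 CPM in naïve and 6.16 to 110 CPM in withdrawn mice, a log2 fold change of 3.80 ± 0.82 (SE; adjusted p = 0.126 by edgeR, 0.000436 by DESeq2). Zic2 was below the filter on low counts and at most 8.98 CPM. Slc6a6, the taurine transporter, was at 35.4 to 130 CPM in naïve mice and 125 to 226 CPM in withdrawn mice (log2 fold change 1.00 ± 0.27, SE, adjusted p = 0.256 by edgeR and 0.0492 by DESeq2). Twist2, the closest relative of Twist1, was at 2.81 to 7.72 CPM in naïve mice, and its withdrawn range of 2.34 to 5.37 CPM overlapped this (log2 fold change -0.14 ± 0.53, SE, adjusted p = 0.980 by edgeR). Osr2 was at 0 in all 5 withdrawn mice and at most 0.165 CPM in naïve mice, 3 counts in 1 library.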

How the data were processed

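RNA was sequenced from mPFC CRF1+ neurons of 6 naïve and 5 withdrawn mice. The authors amplified cDNA from 160 pg of RNA per mouse, trimmed adapters with cutadapt, aligned to GRCm38 with STAR and used HTSeq for counting. The deposited values are raw counts per Ensembl gene, not normalized or pooled. Symbols and coordinates came from GENCODE on the same assembly, and 53274 of 53465 identifiers matched. Mice were grouped by title and treatment, and same-numbered mice are different animals. The members and lists were chosen with earlier results of these data known. Floors cover counting error only. The SE of a fold change was the size of the log2 fold change divided by the square root of its quasi-likelihood F. It includes variation between mice as estimated by the fit, and for Tbx15 it is a description only. The SD of a level is the spread between mice.

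Withdrawn and naïve mice were compared with edgeR 4.0.16 in R 4.3.3 (TMM, filterByExpr with minimum count 10 and minimum total 15, quasi-likelihood test, Benjamini-Hochberg adjustment over 17093 genes). Calls needed an adjusted p no greater than 0.05 with a log2 fold change beyond 0.6, and DESeq2 1.42.0 was an alternative. CPM used TMM library sizes of the tested genes and log2 CPM a prior count of 2. RPKM was computed from CPM and merged exon length. A second fit held group and the log2 CPM of Tbx15. Exact permutation tests were two-sided. Pairs of libraries had chi-square per degree of freedom of at least 25.6, far above sampling noise. The genes named were the 10 members, the 5 genes most like their mean, every gene of the matrix, retinoic acid and relatives lists that edgeR or DESeq2 called, and those said to be named after their values were seen. The values of 1 gene under this rule are not reported here. Cldn11, Slc47a1, Slc22a8, Dpp4, Igfbp6, Cxcl12, Col5a1, Ptgdr, Foxc2, Gja1, Twist2 and Osr2 were also named after their values were seen. Methods were tested on simulated data. Alternatives were other scalings, filters, tests, thresholds, a replicate block, fits without 3 mice with conflicting labels, and each mouse left out in turn.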

Additional observations from a re-analysis of the deposited data

Results flagged for a closer look

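Values that stood far from the rest of their group were looked for in 20 sets (10 genes in 2 groups), and 3 were found, where chance gives about 1. Foxc1 in naïve mouse 5 had 0 counts, a log2 CPM of -2.80, far below the other 5 naïve mice. Zic1 in withdrawn mouse 2 had 0 counts, a log2 CPM of -2.80, below the other 4 withdrawn mice, and so had Osr1 in the same mouse, also at -2.80. Naïve mouse 5 also had the fewest genes detected (15585), and withdrawn mouse 2 the lowest summed level of the matrix genes (106 CPM).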

How the results depend on the processing

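By edgeR 0 identity genes, 0 matrix genes, 0 retinoic acid genes and 0 relatives were called, of 1 gene in all. DESeq2 called 2 (Foxc1 and Foxd1), 5, 2 and 3 of them, of 362 in all, and without withdrawn mouse 2, an alternative chosen after seeing the data, 4, 10, 4 and 5, of 540. With no low-count filter edgeR called 1 (Foxd1), 7, 1 and 2, of 137, and with at least 10 counts in every mouse it called 1 matrix gene, Mgp, of 30. With each mouse left out in turn edgeR called 0 to 0 identity genes, 0 to 7 matrix genes, 0 to 1 retinoic acid genes and 0 to 2 relatives, and the highest count of each was without withdrawn mouse 2, when 193 genes in all were called. Of the slopes on Tbx15, 0 were called by edgeR, also with each mouse left out (0 to 0), and 1 by DESeq2 (Foxd1). Of 162 alternative fold changes of identity genes, 161 kept their direction, and that of Crabp2 reversed to -0.47 without the 3 withdrawn mice with conflicting labels. The median within-group correlation of 0.544 moved between 0.414 and 0.613 with each mouse left out. With the replicate number as a block, 0 genes of each list and 0 slopes were called. The correlations of same-numbered mice were -0.009, -0.062, -0.200, 0.038 and 0.182, and 1 of 5 correlated best with its own number, so the numbers do not pair the mice. The cause of these changes was not tested. At this depth a gene at 0 may lie anywhere up to 0.140 to 0.369 CPM.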
